A study of Caenorhabditis elegans with 2 samples.

Results

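The C-type lectin genes of Caenorhabditis elegans, taken here as the protein-coding genes whose symbol is clec- followed by a number, number 240 of 19973 protein-coding genes on the nuclear chromosomes. A promoter window ran from 1000 bp upstream to 200 bp downstream of any annotated 5' end, and 15 of the 240 genes held a summit of the optimal PHA-4 peak list in it, through 13 peaks. PHA-4 was profiled by ChIP-seq, which sequences DNA recovered with a protein, in whole L3 larvae of mixed sex of strain OP37, which carries unc-119(ed3) III and wgIs37, an insertion that per the labels targets pha-4. There is 1 group, of 2 biological replicates, and no second genotype, stage or treatment. The labels' description names eGFP-pha-4 as the target while their antibody entry names pha-4, so the part of the protein that was recovered is not settled. Whole larvae hold every tissue, so a peak cannot be given to a tissue, and no gene's expression was measured.

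The optimal list held 7847 peaks that passed the authors' irreproducible discovery rate step, a comparison of the replicate and pooled lists. A pooled list and a list for each replicate held 30000 regions each, weak ones included. Each region has a height, the authors' signal, whose scale is not stated. The number of reads behind the lists is not known here. Heights are therefore compared within a list, and between replicates only after division by that replicate's median over the optimal peaks (28.4 in replicate 1 and 57.6 in replicate 2), a value called relative signal.

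C-type lectin domains are protein folds first known for binding sugars with the help of calcium, and the family is one of the large expanded families of the nematode. Many of its members are secreted, many are made in the intestine, and a number change in expression when the worm meets bacterial pathogens, in part through the p38 MAP kinase PMK-1. PHA-4 is the FoxA forkhead factor of the worm, the organ selector of the pharynx, and it also acts in the intestine and in other tissues. GATA factors, ELT-2 first among them, drive most genes of the intestine, and bind words with the core GATA.

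Sequence at the summits is shown first, because the words in it differ from peak to peak. The 7 sequences below come from 7 of the 13 peaks. They include both with a forkhead word within 50 bp of the summit (clec-5 and clec-6) and the 1 with most GATA words (clec-78). Further ones are a shared peak of a divergent pair (clec-63) and the lowest peak (clec-187). The last 2 are those whose relative signal differed most between replicates (clec-170 and clec-51). The sequences were read from the RefSeq genome, WBcel235 (ce11), on the strand of the gene. Each is the 151 bases centred on the summit less any base in an annotated exon. Capitals mark TGTTTAC or TGTTTGC (forkhead words), GATAAG and TGATAA, on either strand, so that a word on the other strand is printed as its reverse complement. GATAAG and TGATAA overlap where TGATAAG is read.
clec-5: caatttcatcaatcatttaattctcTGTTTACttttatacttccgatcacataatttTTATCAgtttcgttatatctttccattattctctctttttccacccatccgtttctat
clec-6: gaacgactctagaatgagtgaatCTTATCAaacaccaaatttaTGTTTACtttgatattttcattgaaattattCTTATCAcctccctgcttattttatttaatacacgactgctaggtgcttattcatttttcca
clec-78: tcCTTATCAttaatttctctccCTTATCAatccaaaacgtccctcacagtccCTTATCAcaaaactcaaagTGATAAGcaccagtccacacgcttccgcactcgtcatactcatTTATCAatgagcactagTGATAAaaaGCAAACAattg
clec-63: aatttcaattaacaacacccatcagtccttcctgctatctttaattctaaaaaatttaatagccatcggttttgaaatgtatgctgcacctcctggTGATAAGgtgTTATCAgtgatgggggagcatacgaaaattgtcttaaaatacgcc
clec-170: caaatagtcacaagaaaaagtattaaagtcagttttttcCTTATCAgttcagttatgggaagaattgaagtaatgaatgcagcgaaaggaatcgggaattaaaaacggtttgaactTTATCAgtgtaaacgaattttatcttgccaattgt
clec-51: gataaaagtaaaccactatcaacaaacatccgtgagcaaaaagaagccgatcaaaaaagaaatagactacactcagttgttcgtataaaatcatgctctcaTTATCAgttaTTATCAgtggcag
clec-187: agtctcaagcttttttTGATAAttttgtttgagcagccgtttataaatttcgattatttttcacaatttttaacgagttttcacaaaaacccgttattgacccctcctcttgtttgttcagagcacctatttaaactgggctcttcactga
They lie at chrIII:4883607-4883721 and chrIII:4887445-4887580 (both minus strand), chrIV:3988756-3988906, chrII:12895383-12895533 and chrIV:1266241-1266391 (plus strand), and chrIV:8163801-8163924 and chrIV:12871520-12871670 (minus strand).

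All 7 hold TGATAA or its complement, and GATAAG stands in clec-6, clec-78, clec-63 and clec-170. The highest peaks, at clec-87, clec-53 and clec-126, are not among the 7. Within 50 bp of the summit those peaks held neither TGATAA nor GATAAG. The same was true of clec-187, the lowest peak, whose TGATAA lies farther out. Within 150 bp clec-53 held TGATAA, while clec-87 and clec-126 held neither word. The clec-5 and clec-6 genes are neighbours on the minus strand of chromosome III, and both sequences hold TGTTTAC upstream of the gene. In clec-63 and clec-51 a pair of TGATAA words lies within a few bases of each other.

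Within 50 bp of the summit, 9 of the 13 peaks held TGATAA on either strand, or 69.2% (95% Wilson interval 42.4 to 87.3), against 754 of 4311 peaks in the window of any protein-coding gene, or 17.5%. GATAAG was found at 6 of 13, or 46.2% (23.2 to 70.9), against 12.0% of the 4311 peaks. The longer word ACTGATAA, known from intestinal promoters, was found at 5 of 13, or 38.5% (17.7 to 64.5), against 5.17%. Every one of the 13 peaks with GATAAG or ACTGATAA also held TGATAA, so these shares are not separate observations. TGATAA and ACTGATAA were added to the search after the member sequences had been seen, so their counts are a description of these peaks and support nothing on their own.

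The forkhead words TGTTTAC or TGTTTGC stood within 50 bp of 2 of the 13 summits, or 15.4% (4.33 to 42.2), against 17.1% of the 4311 peaks. The shorter word TGTTT was found at 5 of 13, or 38.5%, against 51.6%. The repeat GAGAGA was found at 1 of 13, at clec-5, against 21.8%. Within 50 bp the forkhead share was thus close to that of promoter peaks in general, with a wide interval. Within 100 bp forkhead words were found at 4 of 13 summits, or 30.8% (12.7 to 57.6), against 22.7% of the 4311 peaks. Within 150 bp they were found at 6 of 13, or 46.2% (23.2 to 70.9), against 25.7%.

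The GATA words were found more often at low peaks. Among promoter peaks at or above the median height of the optimal list (84.7), 10.5% of 2401 held TGATAA, and among those below it 26.2% of 1910 did. For GATAAG the values were 7.71% and 17.3%. Of the 13 peaks, 9 lay below that median. The median GC content within 50 bp of the summit was 36.6% over the 13 peaks against 40.6% over all 7847. The part of height and of base composition in the GATA counts was not tested.

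**Figure D1:**
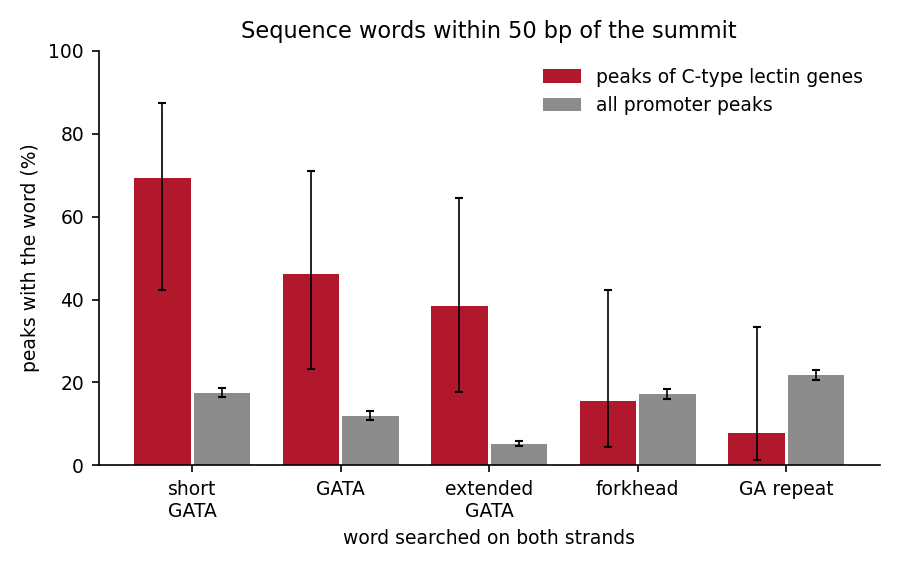
Share of peaks (vertical axis, percent) that hold each word within 50 bp of the summit on either strand, for the 13 peaks in windows of C-type lectin genes (red) and the 4311 peaks in the window of any protein-coding gene (grey); bars are shares and whiskers 95% Wilson intervals. Short GATA is TGATAA (69.2% against 17.5%), GATA is GATAAG, extended GATA is ACTGATAA, forkhead is TGTTTAC or TGTTTGC (15.4% against 17.1%), and GA repeat is GAGAGA.

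Promoters of the family that had no peak also held GATA words. The 300 bases upstream of a 5' end held TGATAA at 13 of the 15 genes with a summit and 114 of the 225 without. That is 52.9% of all 240 and 50.7% of the 225, against 35.8% of protein-coding genes. TGATAA was added after the member sequences had been seen, and most member summits lie within these bases. The count at the 15 genes thus partly repeats the one at the summits, and the 52.9% includes those genes. GATAAG was found at 10 of 15 and 77 of 225, or 36.2% of the family, against 19.5%. Forkhead words were found at 4 of 15 and 25 of 225, or 12.1%, against 14.6%. Genes with several 5' ends have more sequence to search, and among genes with a single 5' end the TGATAA share was 50.2% of 217 C-type lectin genes against 31.2% of 14498 genes.

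The highest peaks of the family stood beside other genes. The peak at clec-87 (gene at chrI:10184462-10185520, minus strand) had a height of 149.6, rank 1537 of the optimal list, and its summit lay 270 bp upstream of clec-87 and 65 bp upstream of rsa-1, a divergent gene for a regulatory subunit of protein phosphatase PP2A. Relative signal there was 1.85 in replicate 1 and 1.65 in replicate 2 (mean 1.75 ± 0.15, SD, n = 2). The peak at clec-53 (chrI:3871474-3873402, minus strand; height 119.8, rank 2305) lay 570 bp upstream of it, inside an intron of uba-5, which encodes the activating enzyme of the ubiquitin-like protein UFM1, and 275 bp downstream of a 5' end of uba-5. Its relative signal was 1.29 in replicate 1 and 1.38 in replicate 2. Both summits are thus nearer to a gene outside the family, and both were above the typical optimal peak in each replicate.

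Among protein-coding genes, a C-type lectin gene was the nearest to each of the other 11 peaks. At clec-126 (chrII:3519494-3520712, plus strand) the summit lay 236 bp upstream, in the exon of a tRNA gene, with a height of 96.8 and relative signal of 1.05 in replicate 1 and 1.11 in replicate 2. Peaks beside tRNA genes could belong to either gene, and the files cannot tell them apart. At clec-78 (chrIV:3989102-4014235, plus strand) it lay 271 bp upstream, with a height of 89.7 and relative signal of 1.23 in replicate 1 and 0.87 in replicate 2. These were the last of the 13 above the median optimal height of 84.7.

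The remaining 9 peaks were low, and most lay within 100 bp of the gene's start. At clec-5 (chrIII:4881888-4883606, minus strand) the summit lay 40 bp upstream with a height of 81.6, and relative signal was 0.72 in replicate 1 and 0.94 in replicate 2. At clec-6 (chrIII:4885660-4887444, minus strand) it lay 61 bp upstream with a height of 64.7, and relative signal was 0.55 in replicate 1 and 0.83 in replicate 2. The neighbours clec-5 and clec-6 thus each had a peak of their own, both higher in replicate 2. At clec-150 (chrIII:1002707-1006298, plus strand) the summit lay 4 bp upstream with a height of 73.1, and relative signal was 1.00 in replicate 1 and 0.78 in replicate 2.

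Peaks shared by a pair of neighbouring C-type lectin genes lay in the windows of 4 of the 15 genes. The peaks at clec-87 and clec-53 also lay in the window of a gene outside the family. The summit between the divergent genes clec-62 (chrII:12893062-12895128) and clec-63 (chrII:12895638-12897446) lay 330 bp upstream of clec-62 and 180 bp upstream of clec-63, with a height of 70.2 and relative signal of 0.89 in replicate 1 and 0.77 in replicate 2. The summit between clec-83 (chrIV:2839371-2841472) and clec-84 (chrIV:2842462-2845605) lay 38 bp upstream of clec-83 and 952 bp upstream of clec-84, with a height of 60.2 and relative signal of 0.71 in replicate 1 and 0.68 in replicate 2. Where a peak counts for the closest 5' end alone, up to 2000 bp away, clec-62, clec-84, clec-87 and clec-53 lose it and other genes gain one, which leaves 14 of 240, or 5.83%, against 23.2%.

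The lowest peaks were those of clec-170, clec-51, clec-65 and clec-187. At clec-170 (chrIV:1266866-1274425, plus strand; 550 bp upstream, height 57.4) relative signal was 0.27 in replicate 1 and 0.84 in replicate 2, and at clec-51 (chrIV:8161953-8163800, minus strand; 49 bp upstream, height 55.8) it was 0.29 in replicate 1 and 0.84 in replicate 2. They ranked 12915 and 12350 in the replicate 1 list and 4942 and 4945 in the replicate 2 list, so they rest mainly on replicate 2. At clec-65 (chrII:12901325-12903336, plus strand; 78 bp upstream, height 48.1) relative signal was 0.39 in replicate 1 and 0.65 in replicate 2. At clec-187 (chrIV:12869270-12871495, minus strand; 100 bp upstream, height 42.9) it was 0.39 in replicate 1 and 0.49 in replicate 2, and this peak, ranked 7632, was the only 1 of the 13 below the ceiling of the q-value (a −log10 of 3.34 against 4.15).

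Across the 15 genes the median height was 70.2 (42.9 to 149.6), against 103.9 over the 4796 protein-coding genes with a summit (41.4 to 862). Relative signal, averaged over replicates, had a median of 0.83 over the 13 peaks (0.44 to 1.75), where 1 is the median optimal peak in each replicate. The coefficient of variation between replicates had a median of 17.1% (2.84 to 71.4), against 19.4% over 7694 optimal peaks matched in both lists. Relative signal was higher in replicate 1 for 5 of the 13 peaks and higher in replicate 2 for 8, among them each of the 4 lowest.

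**Figure D2:**
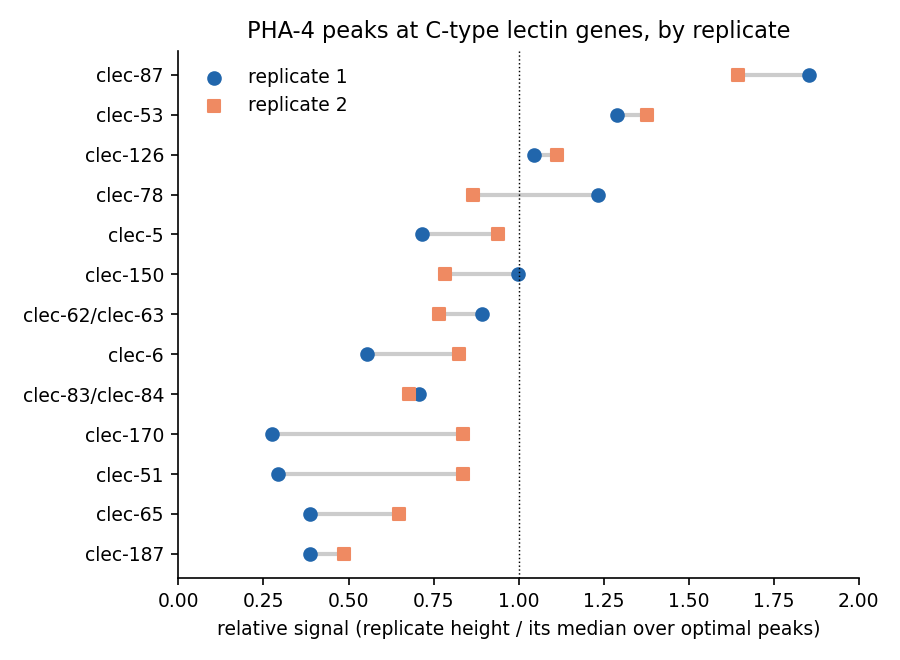
Relative signal (horizontal axis, replicate height divided by that replicate's median over the optimal peaks) of the 13 peaks in windows of C-type lectin genes, from the highest at the top to the lowest, with circles for replicate 1, squares for replicate 2 and a line joining them; the dotted line at 1 is the median optimal peak. clec-87, clec-53 and clec-126 lie above 1 in both replicates, and clec-170 and clec-51 show the widest gaps (0.27 and 0.84, 0.29 and 0.84).

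As a share, 6.25% of the family held an optimal summit (95% Wilson interval 3.82 to 10.1), beside 24.0% of all protein-coding genes. With the summits of the pooled list 35 of 240 genes were marked, or 14.6% (10.7 to 19.6), against 39.4%. With the replicate 1 list 55 were, or 22.9% (18.1 to 28.6), against 43.1%, and with the replicate 2 list 33, or 13.8% (9.96 to 18.7), against 40.0%. Both replicate lists marked 29 genes, or 12.1% (8.55 to 16.8), against 34.7%, and 27 of these, or 11.2%, had the summits within 200 bp of each other, against 32.1%. Some list marked 61 genes, or 25.4%, against 48.9%. With windows from 500 bp before to 100 bp after a 5' end the optimal list marked 12, or 5%, against 19.5%, and with windows reaching back 2000 bp it marked 20, or 8.33%, against 29.4%. Among peaks at or above the median height 4 were marked, or 1.67%, against 15.1%. Genes that share a peak are not independent, so the intervals cover counting error only.

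**Figure D3:**
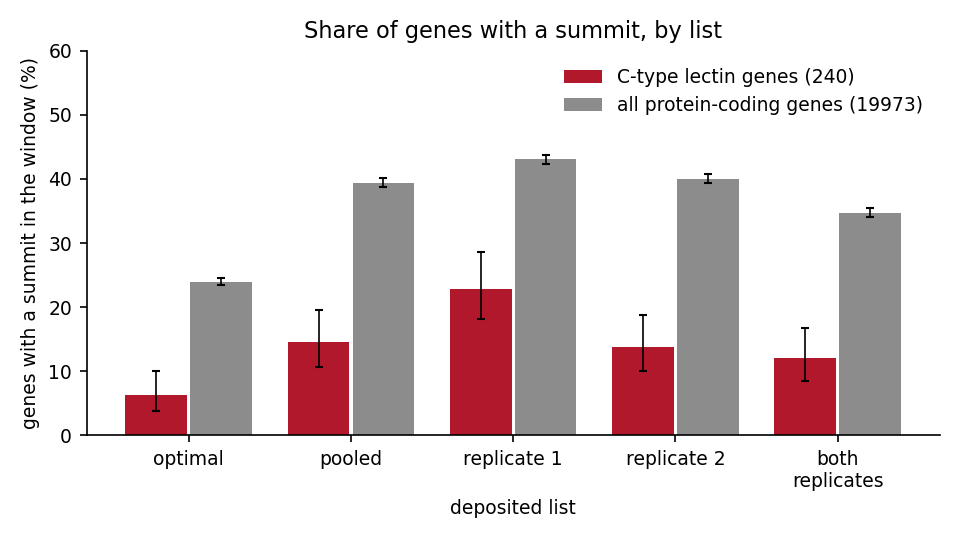
Share of genes (vertical axis, percent) with a summit in the promoter window in each deposited list, for the 240 C-type lectin genes (red) and all 19973 protein-coding genes (grey); bars are shares and whiskers 95% Wilson intervals. The family lies between 6.25% in the optimal list and 22.9% in the replicate 1 list, and all genes between 24.0% and 43.1%.

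Among the 225 C-type lectin genes with no optimal summit, 20 had a weaker pooled region, or 8.89%, against 20.2% of the 15177 protein-coding genes in the same position. A region was listed in replicate 1 for 40, or 17.8%, against 25.2%, in replicate 2 for 19, or 8.44%, against 21.4%, and in both for 15, or 6.67%, against 14.5%. Regions in replicate 1 alone marked 25 genes, or 11.1%, against 10.6%, and regions in replicate 2 alone marked 4, or 1.78%, against 6.87%. In 179 genes, or 79.6%, none of the 4 lists had a summit in the window, against 67.2%. In the replicate lists, the share found in replicate 1 alone was near that of all genes, while the other shares lay lower.

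The weaker regions came close to the optimal list at a few genes. At clec-139 (chrII:4619988-4621750, minus strand) the pooled region had a height of 39.4 and lay at -907 bp (minus signs mean upstream of the 5' end), and at clec-61 (chrII:10488730-10490537, minus strand) it had a height of 38.9 and lay 10 bp inside the gene, just under the lowest optimal peak at 41.4. Lower regions followed at clec-218 (32.9, in a window shared with W02D7.8), clec-82 (32.0), clec-50 (30.5), clec-221 (29.5), clec-85 (29.1), clec-196 (26.0), clec-160 (20.02) and clec-64 (15.5). Of these 10, all but clec-64 had a region in both replicates. The pooled summits of clec-85 and clec-196 lay inside the gene, upstream of an internal 5' end. Over the 20 genes the median pooled height was 14.3 (lowest 7.90), at a median rank of 18794, against 18.2 over the whole pooled list. The whole list holds 7842 regions with the coordinates of optimal peaks, and the 20 genes were chosen for lacking these. The lower median therefore does not show that their regions were unusually weak.

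The edge of the rule is given by a few values. Inside it lay clec-187 with the lowest height, 42.9, and clec-84 with the farthest summit, 952 bp upstream. Just outside, and named after their values were seen, lay clec-92, whose nearest optimal summit was 1141 bp upstream, and clec-221, with a summit 698 bp inside the gene.

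Single genes stood apart from their list position, and were chosen here after their values were seen. clec-72 (chrIV:3944816-3947362, plus strand) had a region in replicate 1 of height 25.8 (rank 4653) at -128 bp and a region in replicate 2 of height 55.3 (rank 4159) at -142 bp, yet none in the pooled or optimal list. clec-140 on chromosome II had a region of height 45.8 in replicate 1, rank 1991 of that list, with no counterpart in replicate 2. The same held for clec-104 (27.6, rank 4253), clec-205 (23.9, rank 5026) and clec-265 (19.6, rank 6142).

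The family lies mostly away from the chromosome centres. Of the 240 genes, 86 are on chromosome V, 53 on IV, 48 on II, 36 on I, 14 on III and 3 on X. In the stretches outside the central 1 of 3 equal parts of a chromosome lie 84.2% of the family, against 62.2% of all genes. None of the 86 genes on chromosome V held an optimal summit, while 17.5% of all genes there did. A count of 0 is taken to allow up to 3 counts, here a share of 3.49%. The upper Wilson limit was 4.28%. On chromosome III 3 of 14 genes held one, or 21.4%, against 33.7%, on IV 6 of 53, or 11.3%, against 22.5%, on II 4 of 48, or 8.33%, against 21.8%, and on I 2 of 36, or 5.56%, against 29.8%. None of the 3 genes on X did, against 25.0% of all genes there.

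Chromosome V was not empty in the weaker lists. Pooled regions were found at 5 of its 86 genes, or 5.81%, against 28.8%. They were found at 14 of 53 on IV, or 26.4%, against 38.6%, at 10 of 48 on II, or 20.8%, against 36.5%, and at 4 of 14 on III, or 28.6%, against 53.6%. On I the pooled list marked the same number as the optimal list, 2 of 36, against 47.0%, and on X none of 3, against 41.6%. Of the 38 genes in the central stretch 3 held an optimal summit, or 7.89%, against 27.9%, and 12 of 202 outside it, or 5.94%, against 21.6%.

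Neighbouring members within 20 kb of each other formed 20 clusters of 3 or more genes, holding 106 of the 240. In clusters 7 of 106 genes held an optimal summit, or 6.60% (3.24 to 13), in pairs 5 of 58, or 8.62% (3.74 to 18.6), and among genes alone 3 of 76, or 3.95% (1.35 to 11). These shares stand beside 6.25% of the whole family and 24.0% of all protein-coding genes. Of the 20 clusters, 4 had a gene with a summit and 15 had no optimal summit anywhere in their span. Genes outside the family that lay within the spans were marked in 3 of 49 cases, or 6.12%, against the same 24.0%.

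The 4 clusters with a summit were on chromosomes II and IV. The cluster of clec-62 to clec-66 (chrII:12893062-12906644) had 3 of its 5 genes marked in the optimal list and all 5 in the pooled list. The cluster of clec-80 and clec-82 to clec-85 (chrIV:2823746-2855456) had 2 of 5 in the optimal and 4 in the pooled list. Among the 12 genes of the cluster around clec-67 (chrIV:3922165-4014235) clec-78 was the 1 marked, and among the 6 of clec-165 to clec-170 (chrIV:1245171-1274425) clec-170 was. The largest cluster, 13 genes from clec-22 to clec-40 (chrV:16839121-16869840), had none in the optimal or pooled list, which allows a share of up to 23.1%.

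**Figure D4:**
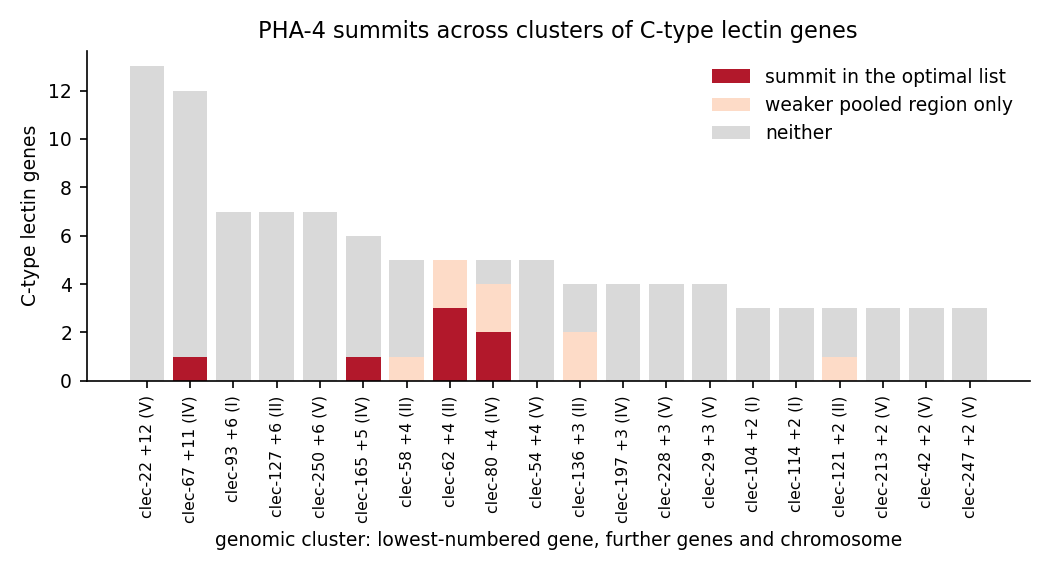
Number of C-type lectin genes (vertical axis) in each of the 20 genomic clusters, named on the horizontal axis by the lowest-numbered gene, the number of further genes and the chromosome; colours split each bar into genes with an optimal summit, with a weaker pooled region only, and with neither. The clec-62 cluster has 3 genes with an optimal summit and 2 with a pooled region, and 16 of the 20 clusters have no gene with an optimal summit.

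Optimal summits lay farther from C-type lectin genes than from other genes. The nearest one was a median of 13424.5 bp from a 5' end of a C-type lectin gene (quartiles 5742 and 28622.8 bp), against 5246 bp over all genes (953 and 14237 bp). It lay within 5000 bp for 23.3% of the family and 48.9% of all genes, and beyond 20000 bp for 37.5% of the family and 17.2% of all genes. The nearest protein-coding gene outside the family, on either side of a member, held a summit in 36 of 299 cases, or 12.0% (8.82 to 16.2), so the neighbours also lay below the 24.0% of all genes. No test of these differences was run.

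**Figure D5:**
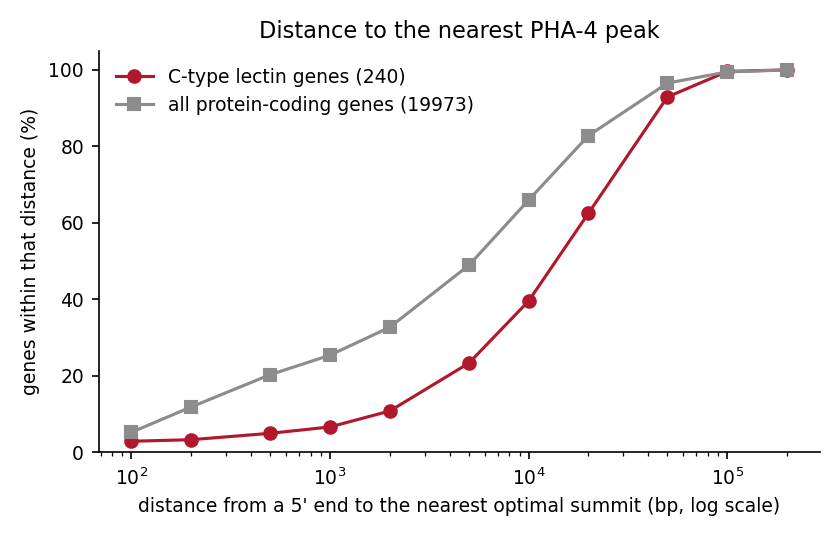
Share of genes (vertical axis, percent) whose nearest optimal summit lies within the distance on the horizontal axis (bp from a 5' end, log scale), for the 240 C-type lectin genes (red) and all 19973 protein-coding genes (grey). At 5000 bp the curves stand at 23.3% and 48.9%, and they come together near 100000 bp.

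Annotation and repeated sequence also differ between the family and other genes. C-type lectin genes averaged 1.11 annotated 5' ends against 1.49 over all genes, and more 5' ends give more windows. Among genes with a single 5' end 11 of 217 were marked, or 5.07%, against 19.3%, and among genes with several 4 of 23 were, or 17.4%, against 36.5%. Windows in which at least 95% of 31-base words were unique in the genome belonged to 70.8% of the family and 78.6% of all genes, and among these 12 of 170 were marked, or 7.06%, against 26.7%. The symbols clec-249, clec-209 and clec-15 each name a pair of genes of equal coding length, and none of the 6 had a region in any list. Their windows had 0 to 14.4% unique words, so whether reads could be placed there is not known.

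Coding length was one more feature. The predicted proteins had a median of 361 residues in the 15 genes with a summit and 315 in the 225 without, against 328 over all protein-coding genes.

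A list of 8 members was drawn up for the response to bacteria: clec-39, clec-49, clec-60, clec-67, clec-70, clec-71, clec-85 and clec-87, the last being the least certain entry. Of these 8, clec-87 alone held an optimal summit, or 12.5% (95% Wilson interval 2.24 to 47.1), beside the 24.0% of all genes. That interval includes the share of all genes, and the summit lay nearer to rsa-1 than to clec-87. clec-85 (chrIV:2850886-2855456, plus strand) had a pooled region of height 29.1, in a window shared with Y54G2A.49. Its summit, at 2854251, lay inside the gene, at -531 bp from an internal 5' end. For the other 6 the nearest optimal summit lay 4262 bp (clec-60), 13141 bp (clec-39), 22133 bp (clec-67), 28215 bp (clec-49), 32676 bp (clec-70) and 37426 bp (clec-71) from a 5' end.

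Summits were also counted at genes that act above or beside the lectins in defence. In the p38 branch 4 of 7 genes held a summit, or 57.1% (95% Wilson interval 25 to 84.2), against 24.0% of all genes. They were tir-1 (a TIR adaptor, height 158.5), nsy-1 (a MAP kinase kinase kinase, 47.8), atf-7 (the bZIP factor downstream of PMK-1, 83.3) and vhp-1 (a MAP kinase phosphatase, 319). sek-1, pmk-1 and tpa-1 held none, with weak pooled regions at pmk-1 (17.4) and tpa-1 (18.6). Of 7 regulators 5 held one, or 71.4% (35.9 to 91.8), against the same 24.0%. They were zip-2 (a bZIP factor, 319), hlh-30 (TFEB, 206), daf-16 (FoxO, 169.3), skn-1 (Nrf, 57.2) and elt-2 (the intestinal GATA factor, 42.7), while pqm-1 and cebp-2 did not. Where a gene had several peaks, the highest is given. Among all genes, those with several 5' ends were marked more often (36.5% against 19.3% with a single one). The p38 and regulator lists were not split by this.

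Of 8 further gene families or groups linked to defence or sugar binding, the shares ran from none to 8 of 12 genes, beside the 24.0% of all genes. Saposin-like spp genes had 9 of 31 marked, led by spp-5 (138), spp-8 (107) and spp-1 (93.1). Among them spp-2 and spp-6 shared a peak (61.4), and the peaks of spp-4 and spp-14 were not matched in both replicate lists. Lysozymes had 3 of 10 lys genes, lys-8 (107), lys-2 (54.3) and lys-4 (49.4), and 1 of 6 ilys genes, ilys-5 (48.2). The antibacterial factors abf-6 (199) and abf-5 (125) were 2 of 6. Relative signal was 2.64 ± 1.38 at abf-6 and 1.45 ± 0.06 at abf-5 (SD, n = 2). Galectins, sugar-binding proteins of another fold, had 8 of 12 marked, with a median height of 264, and lec-7 (330) and lec-1 (308) were the highest. None of 11 cnc, 8 irg and 5 thn genes was marked, counts of 0 that allow shares of up to 27.3%, 37.5% and 60%. Over all 8 groups 23 of 89 genes held a summit, or 25.8% (17.9 to 35.8).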

How the data were processed

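ChIP-seq of eGFP-pha-4 was deposited as peak lists for 2 biological replicates of 1 group. The deposited manifests say that a replicate's 30000 regions come from its own alignment and a control file common to both, the pooled 30000 from the 2 alignments together, and the 7847 optimal peaks from comparing these lists. Aligner, caller, thresholds, read length and depth: not given in the sources used here, and no interval on reads is possible. The deposited lists give a signal (peak height, scale not stated) and a q-value as −log10, whose ceiling of 4.15 is shared by 7031 optimal peaks. The height is the authors' own value per peak and was used only to describe, rank and filter peaks. Regions had been called in each replicate and in the pool, and a replicate was read from its own list. The deposited lists on ce10 were not used.

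Summits on ce11 were placed in windows of the protein-coding genes of Ensembl release 115 (WBcel235), mitochondrial genes left out, with Python 3.11.15, NumPy 2.4.6, pandas 2.3.3 and SciPy 1.17.1, and figures drawn with Matplotlib 3.10.9. A replicate region was matched to an optimal peak where its summit lay within 200 bp. Shares have 95% Wilson intervals, which cover counting error only. A count of 0 is instead given as allowing 3 counts of the total, a limit that differs from the Wilson limit. Words were searched on both strands of the RefSeq genome. The placing code was tested on simulated data.

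The gene family, the lists, the words and the comparisons were chosen with earlier results of these data known, and no test was run, since there is 1 group. Genes named are every C-type lectin gene with an optimal summit, the genes nearest to or sharing those summits, the 10 others with the highest pooled region, 8 infection markers, the p38 branch and regulator genes, and marked genes of the other families; others are named as chosen after their values were seen. A planned comparison of predicted protein sequences beyond their length was not made. Alternatives covered the window, region overlap, height, gene assignment, cluster gap, word distance and each replicate alone.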

Additional observations from a re-analysis of the deposited data

How the results depend on the processing

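The share of C-type lectin genes with an optimal summit, 6.25%, lay between 5% and 10% under the other windows, overlap, assignment and pooled settings, and was 1.67% among peaks at or above the median height. With 1 replicate left out, which means the 7847 highest regions of the other replicate's list with no reproducibility step, it ranged from 5.83% to 7.5%. The pooled share of 14.6% moved to 10.4% when the window was cut to 500 bp before and 100 bp after the 5' end and to 10% in the higher-ranked part of the pooled list, and ranged from 13.8% to 22.9% with the whole list of 1 replicate in its place (22.9% without replicate 2). The share in both replicates, 12.1%, moved to 7.92% with that shorter window. The median height divided by its list's median, 0.829, moved to 0.796 when the window reached back 2000 bp and 0.756 with nearest 5' ends, and ranged from 0.833 to 0.866 with 1 replicate left out. The share with a forkhead word, 15.4%, moved to 46.2% within 150 bp. The causes were not tested. The 3 alternatives added after seeing the data (genes with a single 5' end, windows overlapping no other member's, unique windows) gave 5.07%, 5.19% and 7.06%. Clusters numbered 19 with gaps of at most 10 kb and 24 with 50 kb. No paired analysis was possible because there is only 1 group. With 13 peaks, word shares are imprecise, and the unknown depth limits what a missing region can show.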

Other observations

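Within C-type lectin genes but outside their promoter windows lay 3 optimal summits, all in exons, named after their values were seen. They were in clec-221 (height 51.1, 698 bp inside the gene), clec-264 (49.2, 2677 bp inside, nearest to a 5' end of fkb-6) and clec-266 (59.0). The clec-266 summit lay 1951 bp downstream of an internal 5' end of the gene and 157 bp upstream of kqt-1.

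Word content differed among peaks of other sugar-binding and antibacterial families. Of 14 promoter peaks of lysozyme, saposin-like and antibacterial factor genes, 9 held TGATAA within 50 bp of the summit, or 64.3% (95% Wilson interval 38.8 to 83.7), and 1 held a forkhead word, or 7.14%. Of 10 promoter peaks of galectin genes, 1 held TGATAA and 7 a forkhead word, or 70% (39.7 to 89.2). TGATAA was added to the search after the C-type lectin peak sequences had been seen, and the differences were not tested.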
